A study of Mus musculus with 479 samples.

Results

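Kidneys of mice heterozygous for Fat4 (Het, 30 libraries) were compared with kidneys of wild-type littermates of the same line (WT, 30 libraries), across every gene in the deposited tables. The 60 libraries were taken by line, tissue and genotype as labelled and were 60 of the 479 libraries of the series, which covers heart, kidney, liver and lung of a Dchs1 line and a Fat4 line. Both lines were made with the VelociGene targeting method on a pure C57BL/6NTac background, which Het and WT groups share. The sources used here give no age or sex of the mice, name no tissue-restricted driver of the allele and do not say which part of the gene was changed. Each library is RNA of kidney tissue, in which cell types are not separated.

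Fat4 is a giant cadherin at the cell surface that binds the cadherin Dchs1 on a neighbouring cell. The pair orients cells within a tissue plane, and in the developing kidney Dchs1 and Fat4 act between stroma and nephron progenitors; in flies the orthologous pair also feeds the Hippo pathway, which restrains the transcriptional cofactor Yorkie, the counterpart of Yap and Taz. The kidney filters blood in glomeruli and recovers most solutes in the proximal tubule, while the thick limb of the loop of Henle and the distal segments set salt and water balance.

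Strand-specific libraries of messenger RNA held 14823367 to 20682586 estimated counts in Het kidneys (median 17247108) and 11349490 to 19496666 in WT kidneys (median 17568688). All 60 libraries held transcripts of the Y-linked Ddx3y, at 34.9 to 55.3 CPM (counts scaled to the library total) in Het and 31.3 to 61.5 CPM in WT kidneys, with Xist at no more than 0.478 CPM in Het and 0.632 CPM in WT kidneys. Kidney markers were present in both groups, among them Slc34a1, the phosphate transporter of the proximal tubule, at a median of 2380.2 CPM in Het kidneys and 2290.2 CPM in WT kidneys. A single Het kidney, replicate 2, carried heart muscle transcripts (10 heart genes summed to 63.7 CPM, against at most 6.85 CPM in any other library), and Het replicate 20 had a summed level of 11 adrenal genes of 12.3 CPM, against at most 3.33 CPM elsewhere. Library numbers fell into 3 separate stretches, with 24 Het and 26 WT libraries in the first, 5 Het and 4 WT in the second and 1 Het alone in the third; the labels do not say what the numbers stand for, nor whether each library is a separate mouse.

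Fat4 transcript was present at less than the WT level in every Het kidney. The gene (chr3:38884667-39011992, GRCm38.p6) ran between 3.18 and 5.82 CPM in Het kidneys, with a median of 4.51. In WT kidneys Fat4 ran between 7.03 and 12.4 CPM, with a median of 9.08. The ranges did not overlap, and the fold change of 0.478 passed the test (log2 fold change -1.07 ± 0.06 SE, adjusted p = 8.14e-24, edgeR quasi-likelihood test). Per transcript length Fat4 stood at 0.421 ± 0.0812 TPM in Het and 0.865 ± 0.138 TPM in WT kidneys (SD, n = 30 each), while Fat1 stood at 5.24 ± 1.23 TPM in Het and 5.08 ± 0.987 TPM in WT kidneys. Fat2 had 0.0338 ± 0.0161 TPM in Het and 0.0425 ± 0.024 TPM in WT kidneys, and Fat3 0.00815 ± 0.00827 TPM in Het and 0.00925 ± 0.0091 TPM in WT kidneys (SD, n = 30 each), so that Fat4 followed Fat1 in level.

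A row with the identifier 807225, which had no symbol in the annotation used, marked genotype from the other side. It held between 36 and 90 reads in every one of the 30 Het kidneys and none in any of the 30 WT kidneys, so that it was at least 560-fold higher in Het against a floor of 3 reads over the WT group. A second row without a symbol, 807237, held 3 to 12 reads in each Het kidney and none in WT kidneys, at least 67.4-fold higher on the same floor. Both rows were read in Het libraries of heart, liver and lung too, and 807225 held a median of 20 reads in Het and 0 in WT kidneys of the Dchs1 line, so that neither row is particular to kidney or to the Fat4 line. Of 14014 genes tested, 807225 alone had every Het library above every WT library and Fat4 alone had every Het library below (0.00714% of tested genes in each direction). Row 807237 separated the groups as fully but was not among the genes tested. With no reads in WT kidneys, 807225 entered the test through its Het reads only. That it stood alone therefore depends on the filter on low counts.

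**Figure D1:**
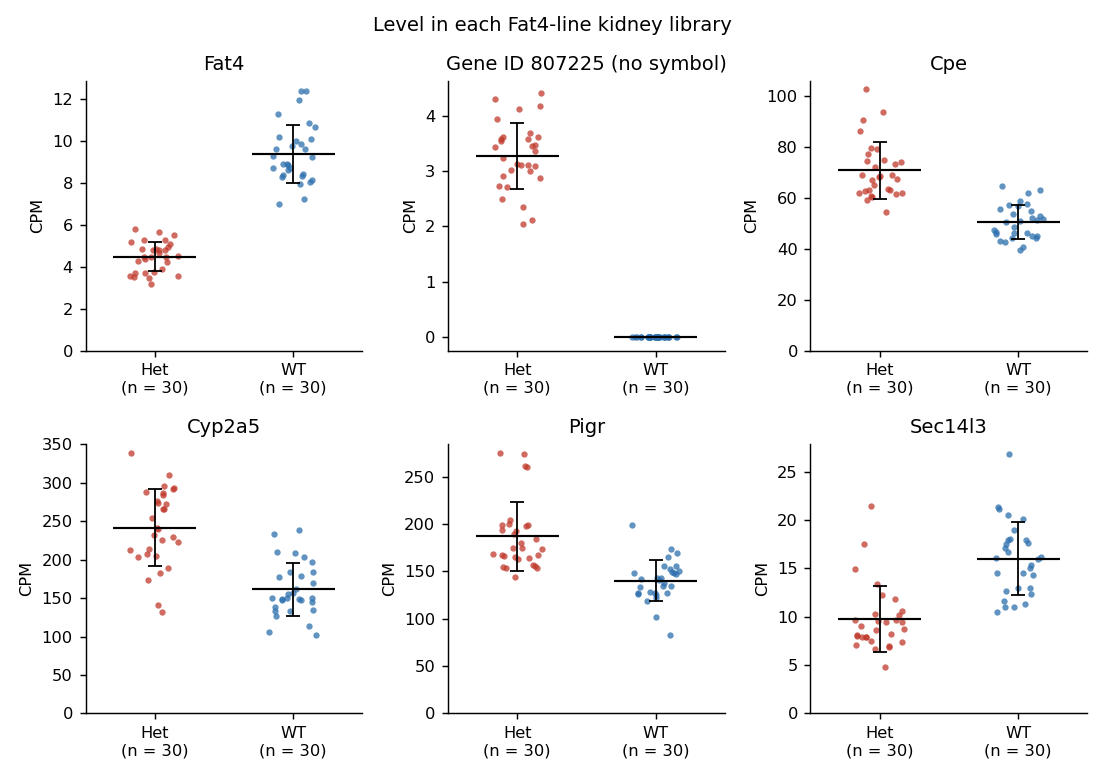
Normalised level in CPM of 6 genes in each of the 60 Fat4-line kidney libraries, Het on the left and WT on the right of each panel, with the mean as a bar and the SD as whiskers (n = 30 each). Fat4 and gene ID 807225 separate the genotypes without overlap, whereas Cpe, Cyp2a5, Pigr and Sec14l3 differ in mean, with ranges that overlap.

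Beyond the targeted gene, heterozygosity went with many small differences. At an adjusted p under 0.05 (edgeR, Benjamini-Hochberg), 2393 of 14014 genes differed, which is 17.1%, with 1290 higher (9.21%) and 1103 lower (7.87%) in Het kidneys. The median size of these differences was 0.169 on the log2 scale, and 32 genes (0.228%) reached 1.5-fold, 24 of them higher and 8 lower. On deposited TPM with limma the split was 68.1% higher among 1453 genes called, against 53.9% higher by counts. Numbers of genes differed little when the heart-carrying library was left out (2513) but came to 1738 without 4 Het libraries described below, and to 2 in the 10 libraries outside the longest number stretch.

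**Figure D2:**
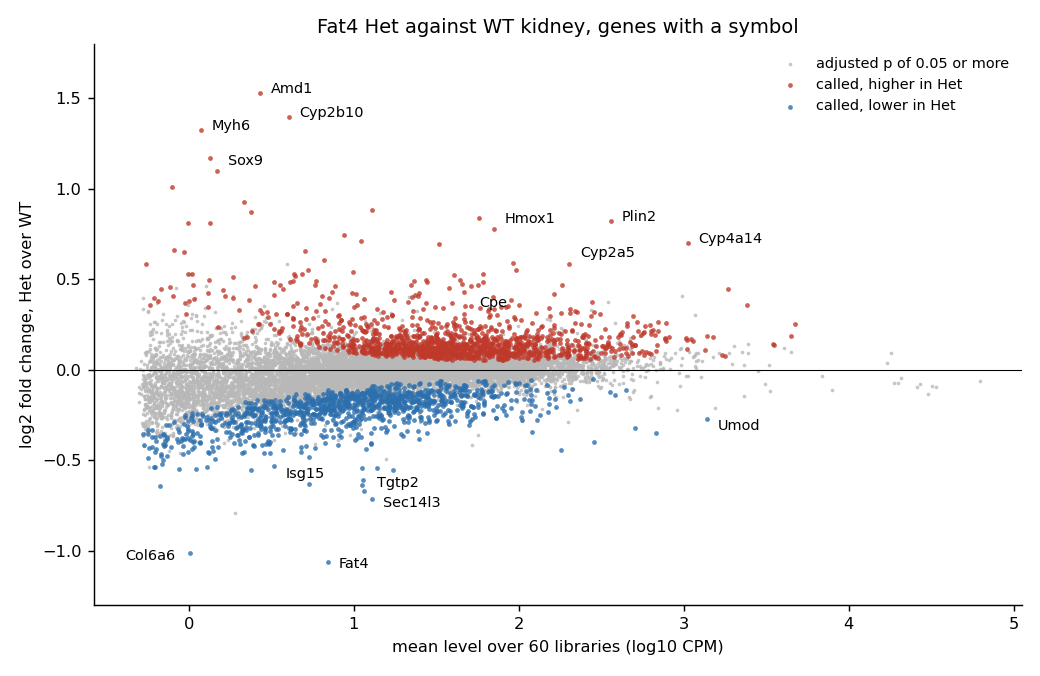
Each tested gene with a symbol by its mean level over the 60 libraries (log10 CPM, horizontal) and its log2 fold change, Het over WT (vertical), coloured by whether the adjusted p was under 0.05. Called genes lie mostly within a narrow band around 0, with Fat4 and Col6a6 at the bottom and Amd1, Cyp2b10 and Myh6 at the top.

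Among genes with the smallest p, Cpe, Pigr and Cyp2a5 were higher in Het kidneys. Cpe, which encodes carboxypeptidase E and trims basic residues from prohormones in secretory granules, ran between 54.7 and 103 CPM in Het kidneys, with a median of 68.5. In WT kidneys Cpe ran between 39.7 and 64.6 CPM, with a median of 50.7. All 30 Het kidneys lay above the WT median, although the ranges overlapped (log2 fold change 0.48 ± 0.05 SE, adjusted p = 5.6e-10). Pigr, the receptor that carries polymeric immunoglobulins across epithelia, ran between 144 and 275 CPM in Het kidneys, with a median of 175. In WT kidneys Pigr ran between 82.8 and 199 CPM, with a median of 142. It too was above the WT median in 30 of 30 Het kidneys (log2 fold change 0.42 ± 0.06 SE, adjusted p = 9.63e-06). Cyp2a5, a cytochrome P450 that hydroxylates coumarin and nicotine, ran between 132 and 339 CPM in Het kidneys, with a median of 241. In WT kidneys Cyp2a5 ran between 102 and 239 CPM, with a median of 151. Here 28 of 30 Het kidneys exceeded the WT median and the 2 lowest did not (log2 fold change 0.58 ± 0.08 SE, adjusted p = 8.65e-07).

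Other genes among those with the smallest p rose as well. Slc37a4, which moves glucose 6-phosphate into the endoplasmic reticulum for glucose release, was at a median of 174 CPM in Het kidneys and 139 CPM in WT kidneys (log2 fold change 0.29 ± 0.04 SE, adjusted p = 1.31e-05). Gpt, alanine aminotransferase, was at a median of 23.3 CPM in Het kidneys and 18.4 CPM in WT kidneys (log2 fold change 0.37 ± 0.06 SE, adjusted p = 1.39e-05), and 29 of 30 Het kidneys lay above the WT median. Cyp2d12, whose reads may be shared with its close Cyp2d paralogs, was at a median of 48.6 CPM in Het kidneys and 34.2 CPM in WT kidneys (log2 fold change 0.53 ± 0.07 SE, adjusted p = 2.75e-06). Rrp12, a ribosome assembly factor, and Extl1, a glycosyltransferase of the exostosin family, rose by 0.30 and 0.81 on the log2 scale (adjusted p = 9.18e-07 and 2.26e-06).

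Sec14l3, a lipid-binding protein of the Sec14 family, was the gene lower in Het with the smallest p after Fat4. It ran between 4.79 and 21.4 CPM in Het kidneys, with a median of 8.88. In WT kidneys Sec14l3 ran between 10.5 and 26.8 CPM, with a median of 16. The level was under the WT median in 28 of 30 Het kidneys, while 2 Het kidneys lay above it (log2 fold change -0.72 ± 0.10 SE, adjusted p = 1.61e-06).

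The 8 largest falls among called genes with a mean of at least 1 CPM, counting Fat4 and Sec14l3, also took in 3 extracellular matrix genes. Col6a6, a collagen VI chain, ran between 0.118 and 1.98 CPM in Het kidneys, with a median of 0.58. In WT kidneys Col6a6 ran between 0.442 and 4.39 CPM, with a median of 1.3. Between the groups, Col6a6 had a log2 fold change of -1.01 ± 0.20 SE, adjusted p = 0.000518. Tnn, tenascin N, was at a median of 8.13 CPM in Het kidneys and 13.5 CPM in WT kidneys (log2 fold change -0.64 ± 0.14 SE, adjusted p = 0.00139). Vcan, the proteoglycan versican, was at a median of 3.76 CPM in Het kidneys and 6.8 CPM in WT kidneys (log2 fold change -0.63 ± 0.15 SE, adjusted p = 0.00213). All 3 were under the WT median in at least 26 of 30 Het kidneys, with ranges that overlapped. Sptssb, a small subunit of serine palmitoyltransferase, fell by 0.56 on the log2 scale (adjusted p = 0.000371). Tgtp1 and Tgtp2, near-identical interferon-induced GTPases whose reads cannot be split with certainty, had log2 fold changes of -0.61 and -0.67; without WT replicate 17, which held 79.4 CPM of Tgtp1 and 67.0 CPM of Tgtp2, these were -0.35 (adjusted p = 0.0616) and -0.47.

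Among the 8 largest rises of called genes with a symbol and a mean of at least 1 CPM, 6 are described first. Cyp2b10, a cytochrome P450 induced through the receptor CAR, ran between 1.53 and 23.7 CPM in Het kidneys, with a median of 4.3. In WT kidneys Cyp2b10 ran between 0.296 and 5.94 CPM, with a median of 2.1. It was above the WT median in 26 of 30 Het kidneys (log2 fold change 1.40 ± 0.24 SE, adjusted p = 8.36e-05). Sox9, a transcription factor that marks repairing tubule cells, was at a median of 1.63 CPM in Het kidneys and 0.788 CPM in WT kidneys (log2 fold change 1.10 ± 0.20 SE, adjusted p = 0.000175). Synpr, a synaptic vesicle membrane protein, rose by 1.17, Fgg, the fibrinogen gamma chain, by 0.88 and Ly6f, a member of the Ly6 family of surface proteins, by 0.87 on the log2 scale (adjusted p = 0.00635, 0.00262 and 0.00217). Ugt1a10 rose by 0.93 (adjusted p = 0.0186), but genes of the Ugt1a locus share their 3' exons and its reads are uncertain. In the 10 libraries outside the longest number stretch the log2 fold change was -0.06 for Sox9 and -0.77 for Ugt1a10.

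The other 2 of these rises rested on few libraries. Amd1, which encodes the adenosylmethionine decarboxylase of polyamine synthesis, had the highest log2 fold change of all genes with a symbol and a mean of at least 1 CPM (log2 fold change 1.53 ± 0.34 SE, adjusted p = 0.00134), yet its medians were 1.48 CPM in Het and 1.41 CPM in WT kidneys. In Het replicates 1, 2, 13 and 30 it stood at 18.1 to 24.9 CPM, against 0.989 to 2.42 CPM in the other 26 Het kidneys and 0.885 to 2.97 CPM in WT kidneys. The same 4 libraries held 25.9 to 31.9 CPM of the near-identical Amd2, against 36.5 to 54.7 CPM in the other Het and 36.5 to 54.4 CPM in WT kidneys. Summed over Amd1 and Amd2 they held 45.3 to 50.9 CPM, inside the 37.5 to 56.5 CPM of the other Het and the 37.3 to 57.4 CPM of WT kidneys, and without them the log2 fold change of Amd1 was 0.04 (adjusted p = 0.818). Myh6, a heart muscle myosin, was at 30.1 CPM in Het replicate 2 and at 0.208 to 1.4 CPM in the other 59 libraries. Without Het replicate 2 its log2 fold change was 0.01 (adjusted p = 0.966).

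Genes switched on by interferon were lower in Het kidneys without exception among the 17 on the list. All 17 of 17 passed the test, against 7.87% of tested genes lower, and their median log2 fold change was -0.30, against -0.00139 over all genes. This list and those below were chosen with earlier results of these data known. Their counts describe these data and are not independent support. Isg15, a ubiquitin-like modifier, ran between 1.62 and 4.11 CPM in Het kidneys, with a median of 2.82. In WT kidneys Isg15 ran between 2.1 and 8.66 CPM, with a median of 3.49. Only 1 Het kidney lay above the WT median, and the highest WT kidneys lay above every Het kidney (log2 fold change -0.53 ± 0.10 SE, adjusted p = 0.000416). Ifit3, which binds viral RNA complexes, ran between 13.5 and 27.4 CPM in Het kidneys, with a median of 20.8. In WT kidneys Ifit3 ran between 19.5 and 49.2 CPM, with a median of 26.9. Between the groups, Ifit3 had a log2 fold change of -0.39 ± 0.07 SE, adjusted p = 0.000301. Ifit1, a sensor of foreign RNA caps, was at a median of 4.49 CPM in Het kidneys and 5.85 CPM in WT kidneys (log2 fold change -0.48 ± 0.09 SE, adjusted p = 0.000143).

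The list held the parts of the pathway in turn. Of its transcription factors, Irf7 had a log2 fold change of -0.32, Stat2 of -0.19 and Irf9 of -0.18 (adjusted p = 0.0056, 0.00824 and 0.00907). Of its effectors, Oasl2, of the oligoadenylate synthetase family, was at a median of 9.37 CPM in Het kidneys and 11.3 CPM in WT kidneys (log2 fold change -0.38 ± 0.07 SE, adjusted p = 0.000122), and Usp18, which removes Isg15 from proteins and dampens the receptor, fell by 0.36 on the log2 scale (adjusted p = 0.00221). The viral RNA sensor Ddx58 showed the smallest change (log2 fold change -0.11 ± 0.03 SE, adjusted p = 0.00992). Summed over the 17 genes, Het kidneys held 205 to 292 CPM and WT kidneys 238 to 504 CPM, the highest being WT replicate 17. Without that library 15 of 17 passed, with 5 surrogate variables 11 did, and on TPM with limma 12 of 16 tested. In the 10 libraries outside the longest number stretch 0 of 17 passed, where 2 of all tested genes did. Of the immune cell lists, 1 of 11 macrophage and dendritic genes passed, where 17.1% of all tested genes were called. Of 3 T and NK cell genes and 4 B and plasma cell genes 0 passed with edgeR, 0 with DESeq2 and 0 at an unadjusted p under 0.05. These were the genes with enough reads to test, of 11 and 8 list members found in the data. They are too few to compare with that share. The part of immune cells in the interferon result was not tested.

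Promoters of these genes are shown because the members moved together and many of them carry the letters of the interferon response element. The motif searched was TTTC, any 2 bases and TTTC again, on either strand, in the 300 bases that RefSeq (GRCm38.p6) gives around each start. It was found in 8 of the 12 list members with a listed promoter, namely Isg15, Ifit1, Ifit3, Stat2, Rsad2, Ddx58, Gbp7 and Bst2. Counted by promoter that was 8 of 13 (61.5%), against 3.13% of 14147 promoters of tested genes and 3.44% of all 32851 promoters. The list was made of genes switched on by interferon, so this contrast describes the list and not the effect of genotype. The promoters of the 3 members described first follow on the gene's strand, with the matching letters in capitals.
Isg15 (chr4:156200769-156201068, minus strand): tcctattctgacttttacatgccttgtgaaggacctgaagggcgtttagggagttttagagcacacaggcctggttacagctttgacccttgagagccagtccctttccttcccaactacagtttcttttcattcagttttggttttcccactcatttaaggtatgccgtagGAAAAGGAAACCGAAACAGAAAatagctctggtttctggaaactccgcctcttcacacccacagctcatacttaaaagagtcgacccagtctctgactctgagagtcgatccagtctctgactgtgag
Ifit1 (chr19:34640639-34640938, plus strand): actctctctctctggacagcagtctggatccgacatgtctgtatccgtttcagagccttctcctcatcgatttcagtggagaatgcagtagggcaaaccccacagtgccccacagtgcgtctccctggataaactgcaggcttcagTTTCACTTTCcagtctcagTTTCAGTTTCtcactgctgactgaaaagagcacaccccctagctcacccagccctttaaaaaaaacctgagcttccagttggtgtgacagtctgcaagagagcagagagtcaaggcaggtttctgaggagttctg
Ifit3 (chr19:34583279-34583578, plus strand): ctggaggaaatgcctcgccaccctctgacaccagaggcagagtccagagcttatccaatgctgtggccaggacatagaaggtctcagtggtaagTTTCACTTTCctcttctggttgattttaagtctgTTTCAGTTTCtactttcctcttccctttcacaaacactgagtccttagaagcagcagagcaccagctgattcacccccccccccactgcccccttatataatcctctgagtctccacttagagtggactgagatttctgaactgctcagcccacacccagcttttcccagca
The Isg15 promoter held 3 overlapping matches and those of Ifit1 and Ifit3 held 2 each. Over all called genes the motif stood in 6.66% of 1126 promoters of genes lower in Het and 1.97% of 1323 promoters of genes higher in Het, against 3.13% of promoters of tested genes. The E-box CACGTG, to which the clock factors Clock and Bmal1 as well as others bind, ran the other way. It stood in 13.2% of promoters of genes higher and 6.39% of promoters of genes lower in Het, against 9.64% of promoters of tested genes. The motif GGAATG of Tead factors, DNA-binding partners of Yap, was searched as well. It stood in 15.8% of promoters of genes lower and 11.9% of promoters of genes higher in Het, against 12.5% of promoters of tested genes. For the D-box (TTATGTAA or TTACGTAA) these shares were 0.533% for genes lower, 0.529% for genes higher and 0.756% for tested genes. These shares describe letters in a window and were not tested.

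**Figure D3:**
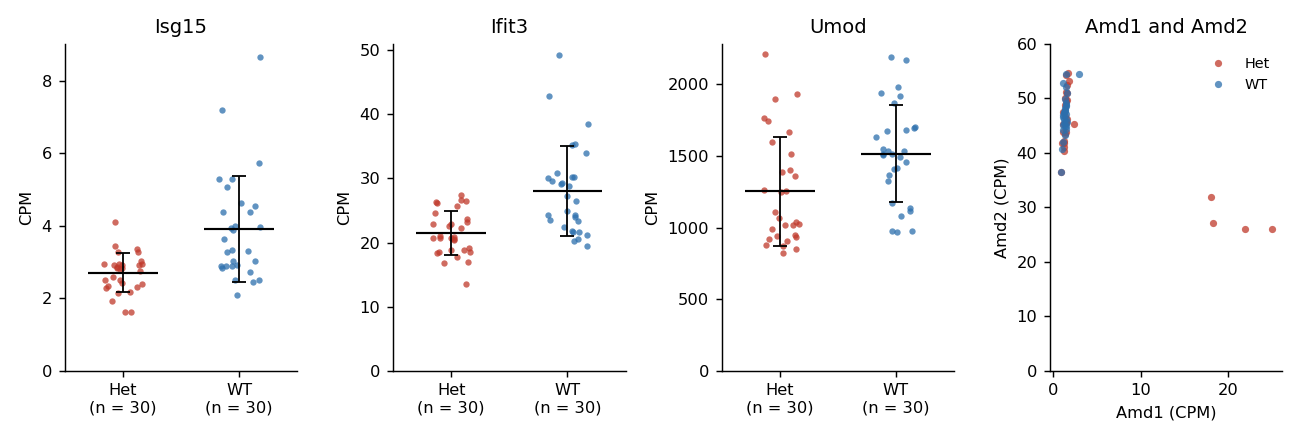
Level in CPM of Isg15, Ifit3 and Umod in each library (Het left, WT right, bar for the mean and whiskers for the SD, n = 30 each), and Amd2 against Amd1 in CPM. High values of Isg15 and Ifit3 occur among WT libraries, and 4 Het libraries stand apart with 18.1 to 24.9 CPM of Amd1 and 25.9 to 31.9 CPM of Amd2.

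In several lists of metabolic genes the called members were mostly higher in Het kidneys. Of 20 xenobiotic enzymes 9 rose and 1 fell, with a median log2 fold change of 0.16, where 9.21% of tested genes rose. Apart from Cyp2a5 and Cyp2b10 these took in Cyp2d9 (medians of Het against WT, 317 against 231 CPM, log2 fold change 0.38, adjusted p = 6.73e-05) and the carboxylesterase Ces2c (324 against 255 CPM, log2 fold change 0.32, adjusted p = 8.94e-05). The epoxide hydrolase Ephx1 fell by 0.14 on the log2 scale (adjusted p = 0.025). Genes of the antioxidant response driven by Nrf2 rose in 7 of 14 cases, with none lower and a median of 0.18, on the same share of all genes. Hmox1, which degrades heme, ran between 28.3 and 158 CPM in Het kidneys, with a median of 94.3. In WT kidneys Hmox1 ran between 28.1 and 101 CPM, with a median of 50. For Hmox1, 26 of 30 Het kidneys were above the WT median (log2 fold change 0.78 ± 0.14 SE, adjusted p = 0.000111). The quinone reductase Nqo1 was at a median of 85.9 CPM in Het kidneys and 68.1 CPM in WT kidneys (log2 fold change 0.35 ± 0.06 SE, adjusted p = 0.000205). The glutathione synthesis subunit Gclc was at a median of 219 CPM in Het kidneys and 177 CPM in WT kidneys (log2 fold change 0.33 ± 0.07 SE, adjusted p = 0.000486). The thioredoxin reductase Txnrd1 was at a median of 173 CPM in Het kidneys and 145 CPM in WT kidneys (log2 fold change 0.25 ± 0.05 SE, adjusted p = 0.000776).

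Fatty acid oxidation genes under PPAR alpha, the receptor active in fasting, rose in 8 of 18 cases with a median of 0.27 and none fell, where 9.21% of tested genes rose. Ehhadh, an enzyme of peroxisomal beta oxidation, was at a median of 2118 CPM in Het kidneys and 1534 CPM in WT kidneys (log2 fold change 0.45 ± 0.10 SE, adjusted p = 0.00216). Plin2, the coat of lipid droplets, had the highest log2 fold change of the list (log2 fold change 0.82 ± 0.22 SE, adjusted p = 0.0078). Cyp4a14, a fatty acid hydroxylase, varied widely: it ran between 199.6 and 3684 CPM in Het kidneys, with a median of 1132. In WT kidneys Cyp4a14 ran between 88 and 2229 CPM, with a median of 718. Its log2 fold change of 0.70 passed the test (adjusted p = 0.0319) but not with 5 surrogate variables, where it was 0.32 (adjusted p = 0.0861). In the longest number stretch alone 13 of the 18 genes rose, where 1403 of 14005 tested genes did. With 5 surrogate variables 6 rose (938 of 14014 over all genes) and on TPM with limma 7 (990 of 12742). In the 10 libraries outside the longest stretch 0 passed, where 2 of all tested genes did.

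Glucocorticoid-induced genes rose in 6 of 15 cases with a median of 0.21, where 9.21% of tested genes rose. Fkbp5, a chaperone of the receptor, was at a median of 93.9 CPM in Het kidneys and 71.6 CPM in WT kidneys (log2 fold change 0.34 ± 0.08 SE, adjusted p = 0.00135). The kinase Sgk1, which raises sodium uptake, was at a median of 108 CPM in Het kidneys and 82.7 CPM in WT kidneys (log2 fold change 0.36 ± 0.09 SE, adjusted p = 0.00563). Cdkn1a, the cell cycle inhibitor p21, which the list shares with the p53 targets, was at a median of 23.8 CPM in Het kidneys and 17.5 CPM in WT kidneys (log2 fold change 0.47 ± 0.12 SE, adjusted p = 0.00433). Of 12 p53 targets, 2 rose (Cdkn1a and Gdf15) and 1 fell (Plk2), not far from the 17.1% called over all genes. On the clock list 5 of 17 genes were called, among which Cry1, Npas2 and Nfil3 rose and Nr1d1 fell (log2 fold changes 0.31, 0.33, 0.26 and -0.31). The sources used here give no hour of tissue collection, so its part in these values cannot be told apart.

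Called genes of glucose and amino acid metabolism were mostly higher too. Of 14 genes for gluconeogenesis and amino acid use 6 rose and none fell, where 9.21% of tested genes rose; the same share applies to the acid base and amino acid response counts that follow. They took in Pck1, whose product commits oxaloacetate to glucose (5281 against 4243 CPM, log2 fold change 0.25, adjusted p = 0.00484). Hpd, of tyrosine breakdown, was another (100.3 against 69.9 CPM, log2 fold change 0.59, adjusted p = 0.00277). Medians here and below are those of Het against WT kidneys. Of 13 genes for acid base balance and ammonia 4 rose, including Glud1, glutamate dehydrogenase (546 against 439.9 CPM, log2 fold change 0.29, adjusted p = 0.00036). The glutamine transporter Slc38a3 was among them (54.1 against 34 CPM, log2 fold change 0.49, adjusted p = 0.00165). Of 14 amino acid response genes 5 rose, including the serine synthesis enzyme Psat1 (63.7 against 46.1 CPM, log2 fold change 0.47, adjusted p = 0.000876). The mitochondrial folate enzyme Mthfd2 rose as well (3.88 against 3.07 CPM, log2 fold change 0.47, adjusted p = 0.00159). Gatm, which makes the creatine precursor guanidinoacetate, went the other way, at a median of 159.5 CPM in Het kidneys and 199 CPM in WT kidneys (log2 fold change -0.45 ± 0.09 SE, adjusted p = 0.000307).

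Of 12 identity genes of the early proximal tubule 2 rose and 1 fell, with a median log2 fold change of 0.03, and of 10 genes of the straight segment 2 rose, where 17.1% of all tested genes were called and 9.21% rose. Hnf4a, the transcription factor that maintains the tubule cell, was at a median of 682 CPM in Het kidneys and 601 CPM in WT kidneys (log2 fold change 0.19 ± 0.04 SE, adjusted p = 0.000205). Slc22a6, the organic anion transporter of the basal side, was at a median of 876 CPM in Het kidneys and 757 CPM in WT kidneys (log2 fold change 0.18 ± 0.04 SE, adjusted p = 0.004). Lrp2, the endocytic receptor megalin, was at a median of 1282 CPM in Het kidneys and 1098 CPM in WT kidneys and did not pass the test (log2 fold change 0.09 ± 0.08 SE, adjusted p = 0.47).

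Called genes of the thick limb and collecting duct lists were lower in Het kidneys. Of 10 thick limb genes 6 fell and none rose, with a median of -0.23, where 7.87% of tested genes fell. Ptger3, the prostaglandin E2 receptor EP3, ran between 10.8 and 25.6 CPM in Het kidneys, with a median of 16.8. In WT kidneys Ptger3 ran between 13.6 and 31.3 CPM, with a median of 22.9. For Ptger3, 27 of 30 Het kidneys were under the WT median (log2 fold change -0.37 ± 0.08 SE, adjusted p = 0.000715). Umod, which encodes uromodulin and is among the most abundant transcripts of the segment, ran between 824 and 2213 CPM in Het kidneys, with a median of 1089. In WT kidneys Umod ran between 967 and 2192 CPM, with a median of 1515. Between the groups, Umod had a log2 fold change of -0.28 ± 0.09 SE, adjusted p = 0.0337. Het kidneys covered nearly the whole WT range of Umod, and 23 of 30 were under its median. Kcnj1, the potassium channel ROMK, was at a median of 90.7 CPM in Het kidneys and 112 CPM in WT kidneys (log2 fold change -0.23 ± 0.06 SE, adjusted p = 0.00611). Slc12a1, the sodium potassium chloride cotransporter, was at a median of 498 CPM in Het kidneys and 726 CPM in WT kidneys (log2 fold change -0.35 ± 0.12 SE, adjusted p = 0.0297). Without the 4 Het libraries high in Amd1, 2 of the 10 genes passed, and Umod had a log2 fold change of -0.26 (adjusted p = 0.0551). Umod also failed with library totals (adjusted p = 0.0511), the number stretch as covariate (0.0568), surrogate variables (0.0577) and limma on TPM (0.0627). In each setting, 4 thick limb genes fell, of 9 tested with limma. Umod passed with DESeq2 (0.0269), DESeq2 size factors (0.033), the longest stretch alone (0.0303) and no filter (0.0499). It also passed without Het replicate 2 (0.0403) or WT replicate 17 (0.0399). In those settings 5 or 6 thick limb genes fell. The number of all tested genes that fell also changed with the setting. It was 779 of 14020 without the 4 Het libraries high in Amd1 and 463 of 12742 with limma on TPM. With surrogate variables it was 659, with library totals 946 and with the stretch covariate 1068, each of 14014.

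In the collecting duct, 4 of 10 intercalated cell genes fell, among them the water channel Aqp6 (29 against 33.8 CPM, log2 fold change -0.28, adjusted p = 0.00114) and the anion exchanger Slc4a1, which red cells also express (30.8 against 37.2 CPM, log2 fold change -0.25, adjusted p = 0.00544), and 2 of 10 principal cell genes fell, Aqp2 and Fxyd4, against 7.87% of tested genes. On TPM with limma 2 of the 10 intercalated cell genes passed. Among 8 tested erythroid genes, a list that also holds Slc4a1, 3 fell and none rose, with a median of -0.24, against 7.87% of tested genes. With limma on TPM 1 erythroid gene passed. The part of red cells in these values was not tested. Of 11 genes for osmolytes and urine concentration 6 fell and none rose, with a median of -0.25, against the same share. Slc14a1, the urea transporter of vasa recta and red cells, was at a median of 6.85 CPM in Het kidneys and 8.63 CPM in WT kidneys (log2 fold change -0.36 ± 0.09 SE, adjusted p = 0.00427). Slc5a3, which imports the osmolyte myo-inositol, was at a median of 95.9 CPM in Het kidneys and 125 CPM in WT kidneys (log2 fold change -0.35 ± 0.11 SE, adjusted p = 0.025). Without the 4 Het libraries high in Amd1, 3 of these 11 genes passed, as on TPM with limma. In whole tissue fewer cells of a segment and less RNA per cell cannot be told apart.

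Vessel and matrix genes were also lower where they passed, and 7.87% of all tested genes were. Of 12 endothelial genes 7 fell, led by the angiopoietin receptors Tek (58.5 against 64.6 CPM, log2 fold change -0.20, adjusted p = 0.000328) and Tie1 (40.6 against 45.3 CPM, log2 fold change -0.19, adjusted p = 0.00203), with a median of -0.12; without the 4 Het libraries high in Amd1 and on TPM with limma 3 of 12 passed. Of 18 fibrosis and matrix genes 6 fell and none rose, including Col1a2, a collagen I chain (48.5 against 59.2 CPM, log2 fold change -0.26, adjusted p = 0.00804), and Sparc, a collagen-binding protein (138 against 161 CPM, log2 fold change -0.19, adjusted p = 0.00654). That count was 13 in the longest number stretch alone, 4 on TPM and 3 with surrogate variables. Over all tested genes, 1308 of 14005, 463 of 12742 and 659 of 14014 fell in these 3 settings. Of 15 stromal and fibroblast genes 2 fell, not far from that share, and of 10 podocyte genes 3 fell and 1 rose.

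**Figure D4:**
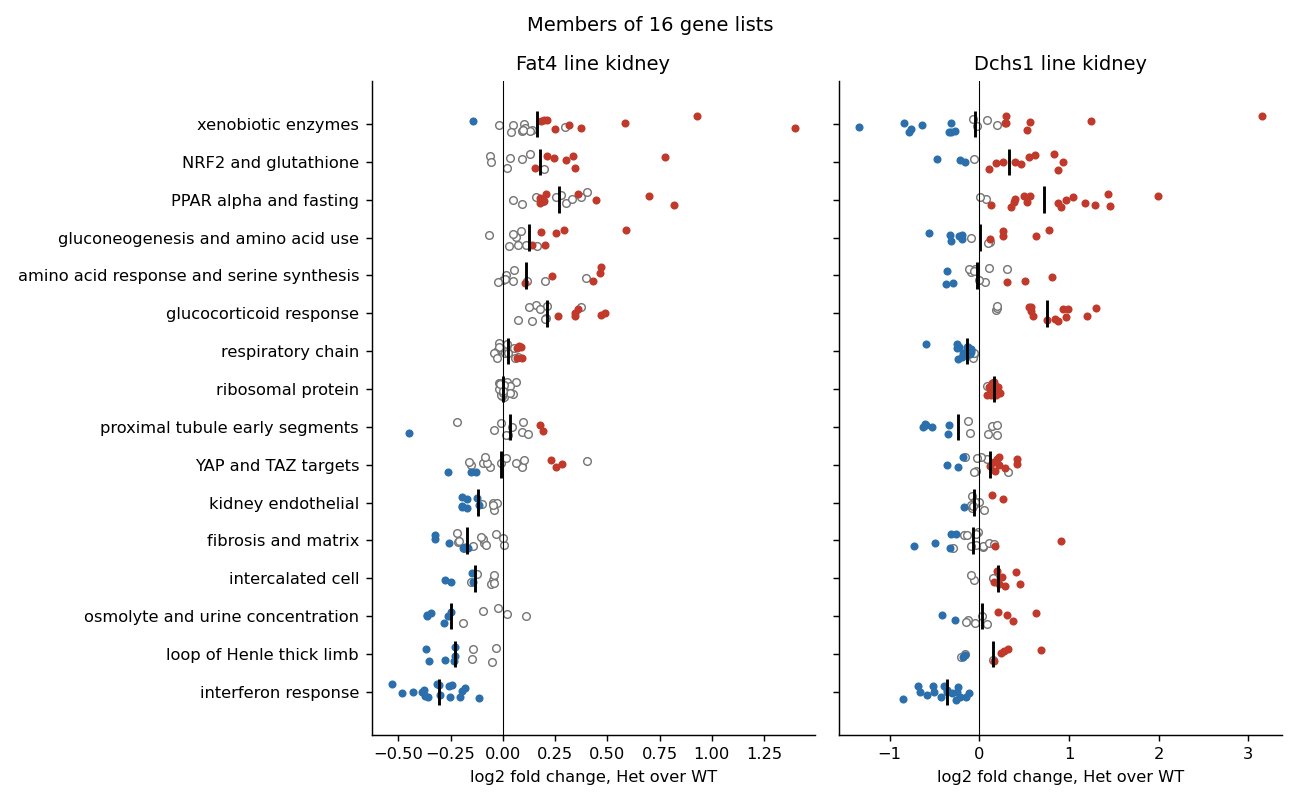
Log2 fold change, Het over WT, of each tested member of 16 gene lists in kidney of the Fat4 line (left) and the Dchs1 line (right), with the horizontal scale set separately for each. Filled points passed an adjusted p of 0.05 (red higher, blue lower in Het), open points did not, and the black bar is the median; interferon genes lie left of 0 in both lines, while thick limb genes lie left of 0 in the Fat4 line.

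Of 19 genes of Fat and Dachsous cadherins and planar polarity 2 rose and 3 fell, counting Fat4 itself, where 17.1% of all tested genes were called. Dchs1, the ligand of Fat4, ran between 8.47 and 14.4 CPM in Het kidneys, with a median of 11.4. In WT kidneys Dchs1 ran between 9.85 and 17.1 CPM, with a median of 12.9. It was under the WT median in 25 of 30 Het kidneys, with ranges that overlapped (log2 fold change -0.20 ± 0.05 SE, adjusted p = 0.00578). Fjx1, whose fly counterpart Four-jointed phosphorylates Fat and Dachsous in the Golgi, ran between 3.64 and 8.28 CPM in Het kidneys, with a median of 6.14. In WT kidneys Fjx1 ran between 3.53 and 6.67 CPM, with a median of 5.27. For Fjx1, 28 of 30 Het kidneys exceeded the WT median (log2 fold change 0.28 ± 0.06 SE, adjusted p = 0.00072). The others were Dvl1, a Wnt signal transducer, at log2 0.08, and the polarity receptor Ptk7, at -0.15. On TPM with limma, which left Fat4 out, 1 gene of this list passed, against 5 with edgeR and 5 with DESeq2.

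Of 22 Hippo kinases and Yap cofactors 1 rose and 2 fell, with a median of -0.00051, where 17.1% of all tested genes were called. Sav1, the scaffold of the Hippo kinases, was at a median of 60.5 CPM in Het kidneys and 57 CPM in WT kidneys (log2 fold change 0.12 ± 0.03 SE, adjusted p = 0.00587). Amotl1, which holds Yap at junctions, was at a median of 42.8 CPM in Het kidneys and 47.6 CPM in WT kidneys (log2 fold change -0.20 ± 0.04 SE, adjusted p = 0.000667). Tead2, a DNA-binding partner of Yap, was at a median of 2.5 CPM in Het kidneys and 2.99 CPM in WT kidneys (log2 fold change -0.33 ± 0.09 SE, adjusted p = 0.012). Yap1 was at a median of 67.3 CPM in Het kidneys and 69 CPM in WT kidneys (log2 fold change -0.02 ± 0.02 SE, adjusted p = 0.648). Its paralog Wwtr1 was at a median of 70.7 CPM in Het kidneys and 69.9 CPM in WT kidneys (log2 fold change 0.06 ± 0.03 SE, adjusted p = 0.0974), and neither passed. Of 19 Yap and Taz targets 3 rose (Fjx1, the coagulation factor receptor F3 and the nucleotidase Nt5e) and 3 fell (Rbms3, Ptpn14 and Arhgef17), with a median of -0.01. The much used reporters Ccn1 (log2 fold change 0.40 ± 0.16 SE, adjusted p = 0.0748) and Ccn2 (log2 fold change -0.06 ± 0.06 SE, adjusted p = 0.533) did not pass. Of 17 kidney development genes 3 fell, the ligands Jag1, Wnt7b and Wnt4 (-0.18, -0.30 and -0.25 on the log2 scale), and none rose.

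Around the targeted gene, 59 genes start within 5 Mb of Fat4 on chromosome 3 and 34 were tested. Mccc1 and Exosc9 rose, by 0.12 and 0.10 on the log2 scale, and besides Fat4 3 fell: Anxa5 by 0.13, D3Ertd751e by 0.13 and Cetn4 by 0.17. That is 6 of 34, where 17.1% of all tested genes were called.

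Some further lists are set beside 17.1% called and 9.21% higher over all tested genes, and not every list is described. Metallothionein and metal genes rose in 4 of 10 cases and androgen and sex biased genes in 4 of 15, with none lower in either list. Among 15 endoplasmic reticulum chaperones 2 rose and 3 fell. Of 20 ribosomal protein genes 0 passed with edgeR and 0 with DESeq2, with 1 at an unadjusted p under 0.05. Of 16 proliferation genes 1 passed (Pcna, 0.08), while 5 of 18 respiratory chain genes rose, each by less than 0.10 on the log2 scale. Tubule injury and repair genes were split, with 5 of 14 higher, including Sox9, Fga and Fgg, and 2 lower, Spp1 and Vcam1. Of 7 genes of secretory granules and peptide processing 3 rose, among them Cpe and Furin, and 2 fell. Of 12 immediate early genes 0 passed with edgeR and 0 with DESeq2, with 1 at an unadjusted p under 0.05.

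The kidney of the Dchs1 line, with 30 Het and 30 WT libraries of its own and no library in common, offers the nearest comparison. There 47.2% of 14142 tested genes differed between Het and WT kidneys. Of the genes tested in both lines 1329 were called in both, 55.7% of the Fat4 kidney calls and 20.1% of the Dchs1 kidney calls. Of these, 525 were higher and 364 lower in Het kidneys of both lines, 247 were higher in the Fat4 line and lower in the Dchs1 line, and 193 the reverse. The test of the difference between the lines' genotype effects called 4802 of 14353 genes, or 33.5%.

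**Figure D5:**
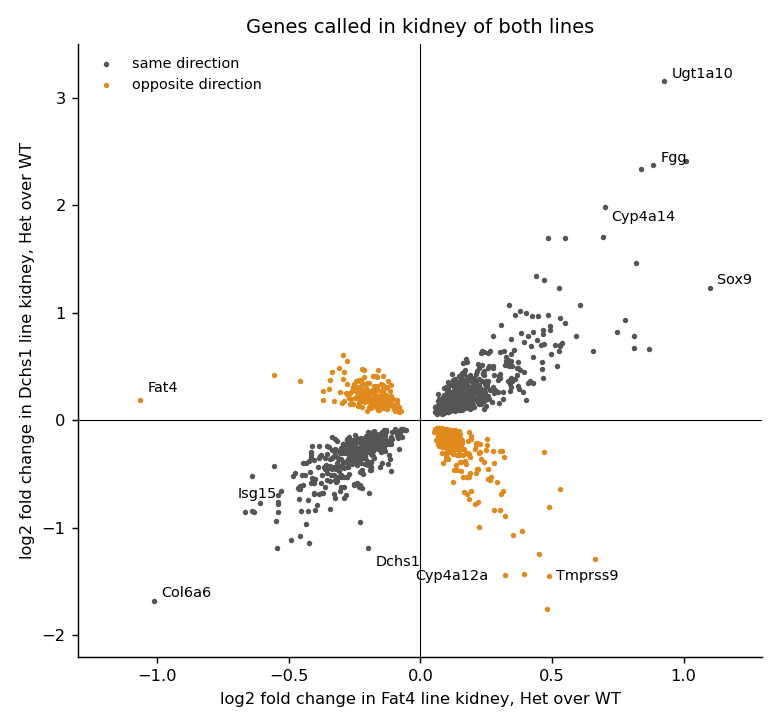
Log2 fold change, Het over WT, in kidney of the Fat4 line (horizontal) and of the Dchs1 line (vertical) for genes with a symbol that were called in both. Most lie in the quadrants of like sign, and 247 and 193 genes lie in the quadrants of opposite sign, where Fat4 itself and Cyp4a12a are found.

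Each line had the fall of its own targeted gene. Fat4 had a log2 fold change of -1.07 in the Fat4 line and 0.19 in the Dchs1 line (difference -1.27, adjusted p = 1.97e-21), and Dchs1 one of -0.20 in the Fat4 line and -1.19 in the Dchs1 line (difference 0.98, adjusted p = 4.29e-18). Interferon genes fell in both kidneys: all 17 passed in each. The edgeR test of the difference between the lines passed for 0 of 17, as did limma on TPM, with 2 at an unadjusted p under 0.05. For Isg15 the log2 fold change was -0.53 in the Fat4 line and -0.66 in the Dchs1 line, and the difference was 0.12 ± 0.15 SE (adjusted p = 0.588), which does not show that the lines act alike. Of 18 PPAR alpha genes 8 rose in the Fat4 line and 16 in the Dchs1 line, and of 15 glucocorticoid genes 6 rose in the Fat4 line and 12 in the Dchs1 line, where 23.4% of tested genes rose. The difference between the lines was negative and passed for 11 of the PPAR alpha and 6 of the glucocorticoid genes, against 17% of all genes; Cyp4a14 changed by 0.70 in the Fat4 line and 1.99 in the Dchs1 line (difference -1.29, adjusted p = 0.0011) and Sgk1 by 0.36 in the Fat4 line and 0.98 in the Dchs1 line (difference -0.63, adjusted p = 0.000522).

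Distal segment genes differed between the lines. Of the 10 thick limb genes, 5 rose and 2 fell in Dchs1 Het kidneys, where 23.4% of genes rose and 23.8% fell, and the difference was lower in the Fat4 line for 5 and higher for 1, against 17% lower and 16.5% higher over all genes; Umod changed by -0.28 in the Fat4 line and 0.24 in the Dchs1 line (difference -0.52, adjusted p = 0.000231) and Ptger3 by -0.37 in the Fat4 line and 0.27 in the Dchs1 line (difference -0.65, adjusted p = 1.15e-07). Of 10 intercalated cell genes 7 rose in the Dchs1 line, and the difference was lower in the Fat4 line for 7. Of 11 genes of the distal convoluted and connecting tubule 7 rose in the Dchs1 line and 1 fell in the Fat4 line, with 9 differences lower in the Fat4 line.

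Proximal tubule transporters and mitochondrial genes differed too. Over all tested genes 9.21% rose in Fat4 Het kidneys, and 23.4% rose and 23.8% fell in Dchs1 Het kidneys. The difference was higher in the Fat4 line for 16.5% and lower for 17% of genes. Of 18 organic anion and cation transporters 3 rose in Fat4 Het kidneys, whereas 13 fell and 4 rose in Dchs1 Het kidneys. For 14 of them the difference was higher in the Fat4 line. Slc22a6 changed by 0.18 in the Fat4 line and -0.53 in the Dchs1 line (difference 0.70, adjusted p = 7.19e-12) and the peptidase Ace by 0.31 in the Fat4 line and -0.66 in the Dchs1 line (difference 0.97, adjusted p = 4.18e-10). Cyp4a12a, an androgen-driven fatty acid hydroxylase with the near copy Cyp4a12b, changed by 0.32 in the Fat4 line and -1.44 in the Dchs1 line (difference 1.75, adjusted p = 9.64e-17), and Tmprss9, a transmembrane serine protease, by 0.49 in the Fat4 line and -1.45 in the Dchs1 line (difference 1.93, adjusted p = 2.83e-18). Of 18 respiratory chain genes 15 fell in the Dchs1 line, and the difference was higher in the Fat4 line for 14; of 20 ribosomal protein genes 19 rose in the Dchs1 line, and the difference was lower in the Fat4 line for 14.

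Cpe, Sec14l3 and, near the threshold, Cyp2a5 differed between the lines. Cpe changed by 0.48 in the Fat4 line and -0.04 in the Dchs1 line (difference 0.51, adjusted p = 3.11e-07), and Sec14l3 by -0.72 in the Fat4 line and -0.19 in the Dchs1 line (difference -0.54, adjusted p = 0.00362). Cyp2a5 changed by 0.58 in the Fat4 line and 0.20 in the Dchs1 line (difference 0.37, adjusted p = 0.0473). Pigr rose in both, by 0.42 in the Fat4 line and 0.36 in the Dchs1 line (difference 0.04, adjusted p = 0.802).

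Liver and heart of the same line had fewer called genes than kidney, and lung was not compared here; the labels do not say whether they came from the same mice. In Fat4 Het liver 892 of 12484 genes were called (7.15%), 217 of them also in kidney (10.6% of kidney and 26.5% of liver calls among genes tested in both), and 186 of the 217 had the same direction. In Fat4 Het heart 211 of 13213 genes were called (1.6%), 71 also in kidney (3.41% of kidney and 35.3% of heart calls), 63 with the same direction. Fat4 fell in each, by 1.03 on the log2 scale in liver and 0.95 in heart. Interferon genes fell in 13 of 17 cases in liver, where 3.51% of genes were lower, and in 2 of 17 in heart, where 0.628% were. Isg15 had log2 fold changes of -0.53 in kidney, -0.62 in liver (adjusted p = 0.00561) and -0.29 in heart (adjusted p = 0.0797). The difference between tissues was called for 655 of 14597 genes against liver (4.49%) and 242 of 14793 against heart (1.64%). Cpe had a log2 fold change of 0.48 in kidney and -0.04 in heart (difference 0.53, adjusted p = 5.06e-12), and Pigr 0.42 in kidney and -0.11 in liver (difference 0.53, adjusted p = 1.72e-07).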

How the data were processed

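The labels put 30 Het and 30 WT kidneys in the Fat4 line; the members and gene lists were chosen with earlier results of these data known. Per the labels' protocols, messenger RNA was purified with beads from total RNA and made into strand-specific single-end libraries; the stated read length differs within the protocol. Of tools, bcl2fastq 2.17 and FastQC appear in the submitters' processing notes, as does the build GRCm38; for the aligner and the counting program the entry is: not given in the sources used here. Values per gene were deposited as estimated counts, of which 15.33% were not whole (tolerance 0.001), so reads of near-identical genes may be divided wrongly. The authors also deposited TPM, scaled to transcript length and to each library's total, which keep no depth; they were used for levels between genes and as an alternative.

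Counts were rounded and tested in R 4.3.3 with edgeR 4.0.16 (TMM scaling, filterByExpr with a minimum count of 10, quasi-likelihood F test, Benjamini-Hochberg threshold 0.05). The SE of a log2 fold change is its size over the square root of F. CPM are counts scaled to a common library total after TMM scaling. Differences between lines and tissues were contrasts in 1 fit over the 4 groups. Alternatives used DESeq2 1.42.0, limma 3.58.1 on log2(TPM + 1) or log2(TPM + 0.1) of genes with at least 1 TPM in 20 libraries, sva 3.50.0 (5 surrogate variables), number stretches split at gaps over 20, and left-out libraries. The edgeR steps were tested on simulated data. No pair of libraries was identical, and all 60 were kept. Symbols came from RefSeq (GRCm38.p6) for 24375 of 24475 identifiers, and promoters from the same source. Text names Fat4, Dchs1, Cpe, Cyp2a5, Sec14l3, Pigr, the 10 genes of smallest p and 8 largest rises and falls among called genes with a mean of at least 1 CPM, the 4 members of smallest p of each list with a called member, called genes near Fat4 and 6 genes of each difference; other genes were named after their values were seen, and a few that the rule names are not reported here. Of 821 list entries in 59 lists 816 matched. Nothing in the labels ties libraries to mice, so p-values cover library spread only, which may be technical.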

Additional observations from a re-analysis of the deposited data

Results flagged for a closer look

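In each case below the genotype effect in Fat4 kidney differed from that in another group by the edgeR test of the difference itself, given as a difference of log2 fold changes (Het over WT) with its adjusted p. Against Dchs1 kidney the differences were -1.27 for Fat4 (1.97e-21), 0.92 for Slco3a1 (2.83e-18), 1.93 for Tmprss9 (2.83e-18), 0.98 for Dchs1 (4.29e-18), 0.69 for Acsm2 (4.79e-18) and 0.86 for Ces1e (1.49e-17). The log2 fold changes of Slco3a1 were 0.09 in Fat4 kidney and -0.84 in Dchs1 kidney, those of Acsm2 0.10 in Fat4 kidney and -0.60 in Dchs1 kidney, and those of Ces1e 0.18 in Fat4 kidney and -0.69 in Dchs1 kidney.

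Against liver of the Fat4 line the differences were 2.93 for Tcf24 (6.14e-20), -1.40 for Ugt2b38 (4.88e-09), -0.62 for Ppp1r9a (5.6e-09), -2.17 for Fam107a (1.58e-08), 0.69 for Ndrg1 (2.25e-08) and 0.53 for Pigr (1.72e-07). The log2 fold change of Tcf24 was 0.07 in kidney and -2.86 in liver, that of Fam107a -0.11 in kidney and 2.07 in liver and that of Ndrg1 0.12 in kidney and -0.56 in liver, and none of these 3 kidney values passed its own test.

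Against heart of the Fat4 line the differences were 0.53 for Cpe (5.06e-12), 0.79 for Extl1 (2.16e-07), 1.37 for Sox9 (1.16e-05), 0.38 for Slc37a4 (1.46e-05), -0.55 for Aspn (5.06e-05) and -0.20 for Msn (0.000124). Aspn, a matrix proteoglycan, had a log2 fold change of -0.39 in kidney and 0.16 in heart, and Msn, the membrane linker moesin, -0.14 in kidney and 0.06 in heart.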

How the results depend on the processing

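The fall of Fat4 kept its direction and call in every alternative in which it was fitted, between -1.10 and -0.97 on the log2 scale; limma left Fat4 out because it lies under 1 TPM. The number of genes called (2393) stayed between 1597 and 2711 under DESeq2 (2488), DESeq2 size factors (2395), library totals (1870), no filter (2151), the number stretch as a covariate (2306), the longest stretch alone (2711), 5 surrogate variables (1597), without Het replicate 2 (2513), without WT replicate 17 (2174) and without the 4 Het libraries high in Amd1 (1738); the last 3 and the 10-library alternative were added after seeing the data. It moved to 1453 with limma on log2(TPM + 1), 1451 on log2(TPM + 0.1) and 2 in the 10 libraries outside the longest stretch, an alternative with 6 Het and 4 WT libraries, where 2012 of 2385 main calls kept their sign. In those 10 libraries the log2 fold changes of 20 named genes turned: Sox9 -0.0595, Sparc 0.0283, Col1a2 0.13, Emcn 0.0112, Adgre1 0.0105, Hsp90b1 0.00271, Furin -0.000708, Myh6 -0.04997, Ctsl -0.00179, Ugt1a10 -0.77, Mmp2 0.28, Ppp1r1a 0.0633, Serping1 0.0797, Wnt4 0.182, Sdf2l1 0.0151, H2-DMa 0.183, Fxyd4 0.0743, Gdf15 -0.0642, Hbb-bt 0.237 and Lss -0.009997. The difference from liver (655 genes) moved to 1014 with limma and 1033 without outlying libraries (liver WT replicates 2, 3, 4 and 5, liver Het replicates 2 and 11); the cause was not tested. The differences from Dchs1 kidney and heart stayed within 1.5 times (4802 and 242). Over named genes and settings 2277 values stayed on their side of the threshold, called or not, 358 lost their call, 38 gained one and the 20 above turned. No kidney library was outlying, so that alternative gave no value. No paired analysis was possible because the labels give each Het and WT library a number of its own, and the replicate numbers used here only name libraries.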
